A study of Macaca fascicularis with 6 samples.

Results

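Cells of a nonclassical monocyte type were picked out of single-cell RNA libraries made from the lungs of 6 male cynomolgus monkeys. A cell was taken when it carried at least 1 unique molecular identifier (UMI, a tag that marks 1 captured RNA molecule) of 2 or more of PLD4, VMO1, MS4A7, AMDHD1 and C19orf38, and of CSF1R or LRRC25. It could hold at most 1 of the macrophage genes C1QA, C1QB, MARCO and FABP4, and none of VCAN (classical monocytes), CD3D and CD3E (T cells), MS4A1 (B cells) and CLEC9A (type 1 dendritic cells). The cells were thus chosen by measured counts. This gate took 667 of the 25388 cells that passed quality control (2.63%). Levels of the 16 gate genes are therefore given as a description and are not tested. The lungs came from 3 control monkeys (replicates 1, 2 and 3), which received saline, and from 3 asthma monkeys (replicates 8, 10 and 11), which were sensitised by injection of Ascaris suum antigen with adjuvant and then challenged through the nose. All 6 were 3 to 5 years old, and each gave 1 library. The tissue was cut, washed and digested, red blood cells were lysed and dead cells removed, so monocytes inside vessels and monocytes within the tissue were not separated. Values below are given in the order control replicates 1, 2 and 3, then asthma replicates 8, 10 and 11.

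Monocytes are bone marrow-derived white cells of the myeloid lineage. Classical monocytes leave the blood early in inflammation and carry the calcium-binding alarmins S100A8 and S100A9 and the lipopolysaccharide co-receptor CD14. Nonclassical monocytes arise from them, stay largely within vessels, where they patrol the endothelium, and depend on the growth factor receptor CSF1R and on the nuclear receptor NR4A1. Dendritic cells of the airway lining and lung tissue, which carry inhaled antigen to T cells in the draining nodes, share part of their gene expression with monocytes. The human nonclassical markers FCGR3A and CDKN1C were not analysed here.

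The libraries held 29014556 to 41489879 UMIs in all and 3511 to 4719 quality-controlled cells each. The gate took 120, 98 and 87 cells from the control libraries and 48, 53 and 261 from the asthma libraries. The library of asthma replicate 11 therefore supplied 39.1% of the gated cells. Gated cells were deep: their median UMI count ran from 8416 to 12510.0 by library, against 3790.0 to 4853 over all quality-controlled cells. No barcode was gated in 2 libraries. Whether a gated cell's barcode occurred among the other cells of another library was not counted. Over all quality-controlled cells, 82 barcodes occurred in 2 or more libraries. Of the 667 cells, 11 (1.65%) were among those with the highest doublet scores, against 4.70% of all quality-controlled cells.

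The gate genes were expressed unevenly among the libraries. Levels are given in CPM, the UMIs of a gene per 1000000 UMIs of the gated cells summed within a library. VMO1, a secreted protein of unknown role in leukocytes, was the most abundant of the 5 nonclassical genes, at 2586, 2425 and 2008 CPM in the control libraries and 1405, 750.4 and 2106 CPM in the asthma libraries. MS4A7, a membrane protein of the CD20 family, stood at 578, 1179 and 279.9 CPM in the control libraries and 642, 433 and 1250.1 CPM in the asthma libraries. PLD4, an endolysosomal exonuclease, stood at 295, 477 and 148 CPM in the control libraries and 374, 167 and 485 CPM in the asthma libraries. In each of these genes asthma replicate 10 or control replicate 3 was the lowest library. C19orf38 and AMDHD1, a histidine-degrading enzyme, were lower, with 100.3 to 386 and 11.7 to 148 CPM. CSF1R, the receptor for macrophage colony-stimulating factor, reached 391.9, 351 and 231 CPM in the control libraries and 439, 536 and 684 CPM in the asthma libraries, and the myeloid membrane protein LRRC25 145 to 534 CPM.

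Of the macrophage genes that the gate tolerated 1 at a time, 191 cells (28.6%) held 1. C1QA, a subunit of complement C1q, stood at 36.1 to 394 CPM, highest in asthma replicate 10. C1QB and the lipid carrier FABP4 stayed at or below 76.5 CPM. MARCO, a scavenger receptor of alveolar macrophages, was at 59.5, 87.7 and 31.2 CPM in the control libraries and 1.86, 1.67 and 2.09 CPM in the asthma libraries. It came from 18 cells, and 1 cell of control replicate 2 held 33.2% of its UMIs. The 5 excluded genes were at 0 by construction. POU2F2, the transcription factor OCT2, is a marker of the label that the gate did not use, and it was found in 76.3% of the gated cells, against 32.4% of classical monocytes and 7.01% of T cells. Its level was 227, 583 and 268 CPM in the control libraries and 424, 135 and 748 CPM in the asthma libraries, with the libraries of both groups interleaved.

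The number of the 5 nonclassical genes in a cell divided the gated cells into unlike kinds. All 5 genes were found in 215 cells (32.2%), 4 in 172, 3 in 146 and 2 in 134. The commonest incomplete sets were all genes but AMDHD1 (148 cells) and VMO1 with MS4A7 alone (65 cells). Cells with 4 or 5 of the genes (387 cells) expressed POU2F2 in 92.5% and TCF7L2, a transcription factor of nonclassical monocytes, in 89.4%. Cells with 2 or 3 (280 cells) expressed them in 53.9% and 32.9%. In T cells, which should lack TCF7L2, 3.06% had a UMI. TCF7L2 is not particular to monocytes: macrophages of these libraries held 189.8, 185 and 152 CPM in the control libraries and 272, 90.6 and 198 CPM in the asthma libraries. Depth did not follow this order, since median UMI counts were 9863, 11847.5, 8510 and 8778 in cells with 2, 3, 4 and 5 genes, and 3633 in T cells.

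Some genes of dendritic cells were more often found in cells with 2 or 3 of the genes. Of the 16 dendritic genes with a row, 5 were higher in these cells in every library and 2 were lower, beside 7.77% and 9.10% of all genes outside the gate. LILRA4, a receptor of plasmacytoid dendritic cells, was found in 39.3% of them and in 10.9% of cells with 4 or 5. FLT3, the receptor that dendritic cells need to develop, was found in 47.1% and 7.49%. FCER1A, the high-affinity IgE receptor chain of mast cells and type 2 dendritic cells, was found in 25.4% and 4.91%. All of these stood at 0.474% or less in T cells. The transcription factors IRF8 (70.4% against 41.3%) and TCF4 (62.9% against 27.1%), which direct dendritic and plasmacytoid development, lay on the same side. These shares are pooled over libraries, and the level of FCER1A did not divide alike in each. Cells with 4 or 5 genes held it at 55.5 CPM in asthma replicate 8 and 108 CPM in asthma replicate 10. All gated cells there held 50.2 and 61.8 CPM, while in the other libraries all gated cells held more. Some macrophage genes were divided in a like way: 5 of 21 were higher in cells with 2 or 3 genes in every library and 1 was lower. The mannose receptor MRC1 was found in 35.7% against 7.75%, with 2.72% in T cells. Of the macrophage genes in the gate, C1QA (22.9% against 5.43%) and MARCO (4.29% against 1.55%) lay on this side. FABP4 was close (6.07% against 5.68%), and C1QB lay the other way (3.57% against 10.1%). With every cell thinned to 2000 UMIs, which left out 10 gated cells, the shares for TCF7L2 were 15.4% and 65.7%, and for LILRA4 26.5% and 4.94%.

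**Figure D1:**
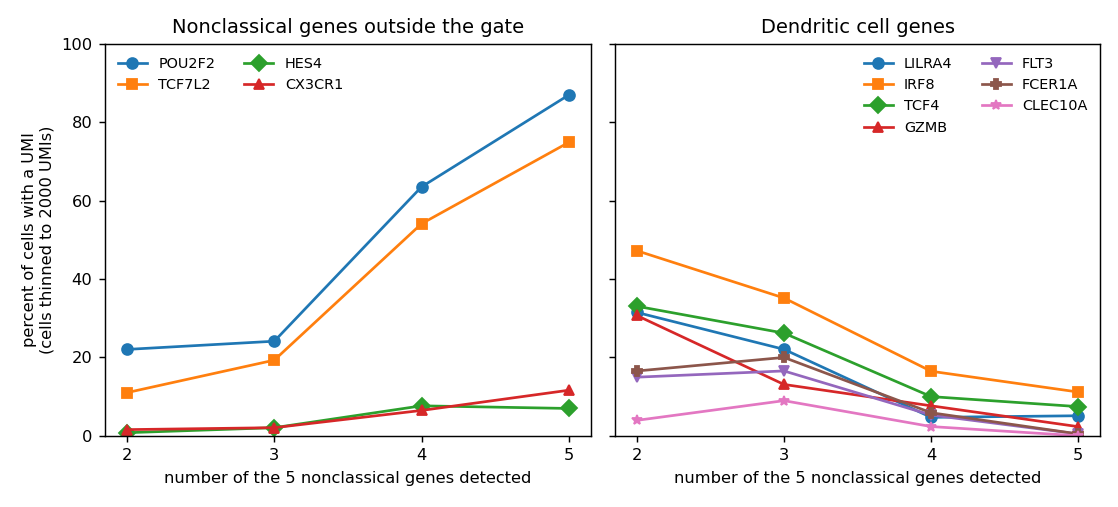
Percent of gated cells with at least 1 UMI of each gene (vertical axis) against the number of the 5 nonclassical gate genes detected in the cell (horizontal axis), all cells pooled over 6 libraries and thinned to 2000 UMIs. POU2F2 and TCF7L2 climb from 22.0% and 11.02% at 2 genes to 87.0% and 74.9% at 5, while LILRA4 goes from 31.5% to 5.12%.

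POU2F2 and TCF7L2, which the gate did not use, were thus more often found in cells with 4 or 5 of the genes than in the others. The cells were divided by the gate's own genes, POU2F2 was given with the label, and TCF7L2 was chosen after its values were seen. The division therefore describes the cells and does not test the label. Asthma replicate 11 supplied 198 of the 387 cells with 4 or 5, so pooled shares lean on it. Cells with 4 genes held FCER1A in 10.5% and MRC1 in 12.8%, against 0.465% and 3.72% of cells with 5. The 16 cells with 4 or 5 genes of asthma replicate 10 held C1QA at 425 CPM, against 6.34 to 58.7 CPM in the other libraries. They held APOE at 3714 CPM, and cells with 2 or 3 genes there at 7611 CPM. At least 1 of FLT3, FCER1A, CD1E, CLEC10A, LILRA4 and CLEC4C was found in 204 of the 280 cells with 2 or 3 genes (72.9%) and in 70 of the 387 with 4 or 5 (18.1%). TCF7L2 kept this division in each library. It stood at 613, 595 and 419 CPM in the control libraries and 395, 316 and 729 CPM in the asthma libraries in cells with 4 or 5 genes. In cells with 2 or 3 it stood at 78.0, 82.0 and 50.9 CPM in the control libraries and 126, 56.5 and 147 CPM in the asthma libraries. No library of the first set overlapped a library of the second. The reverse was seen in GZMB, granzyme B, which plasmacytoid dendritic cells express in primates, at a median of 22.6 CPM in the first set and 1399 CPM in the second, with the second higher in every library. T cells carry GZMB too, and 75.9% of them had a UMI. Of 10274 genes outside the gate with at least 10 UMIs, 935 (9.10%) were higher in cells with 4 or 5 genes in all 6 libraries and 798 (7.77%) were lower.

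Among the genes higher in cells with 4 or 5 of the nonclassical genes in every library were CFD, IDO1, TNFRSF1B and ITGB2. CFD, complement factor D, had a median of 10949 CPM over the libraries against 1416 CPM in cells with 2 or 3. IDO1, a tryptophan-degrading enzyme that is also on the dendritic list, had 742 against 101 CPM, and the tumour necrosis factor receptor TNFRSF1B 564 against 125 CPM. The adhesion chain ITGB2 had 1427 against 530.4 CPM. Classical monocytes held IDO1 too, at a median of 340 CPM. In asthma replicate 10 they held it at 1194 CPM, against 749 CPM in cells with 4 or 5 genes. CX3CR1, the fractalkine receptor of patrolling monocytes, was scarce. It stood at 8.33 to 73.1 CPM by library in cells with 4 or 5 genes and at 0 to 12.99 CPM in the others. T cells held it at 19.2 to 50.8 CPM, with a median of 32.0 CPM against 27.1 CPM in cells with 4 or 5 genes. The order of these 2 kinds of cell differed among libraries. CX3CR1 was found in 32.6% of cells with 4 or 5 genes and in 12.7% of T cells. After thinning, the shares were 9.35% and 7.47%, with 6.24% of all gated cells. Of 16 MHC class II genes, 6 were lower in cells with 4 or 5 genes in every library and 1 was higher, beside 7.77% and 9.10% of all genes, and HLA-DRA was lower in 5 of 6. HLA-DRA had 6208 against 13375 CPM and its chaperone CD74 5544 against 12458 CPM. CCL17, a chemokine that draws type 2 T helper cells, had 4.94 against 399 CPM and came from 46 cells. It was lower in cells with 4 or 5 genes in 5 of 6 libraries, and in asthma replicate 10 it was higher there, at 1107 against 473 CPM.

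At the edge of the gate, cells with exactly 2 of the 5 genes (134) and cells with exactly 1 that met every other condition (143) were set side by side. Pooled over libraries, VMO1 stood at 986 CPM inside and 458 CPM outside, and MS4A7 at 232 and 81.8 CPM. PLD4 was close on both sides, at 67.4 and 51.0 CPM, as was GZMB, at 2508 and 3024 CPM. The cells outside also held SFTPC, the surfactant protein of alveolar type 2 cells, at 17929 CPM against 93.1 CPM inside, though the median over libraries was 3248 CPM. The mast cell protease CPA3 stood at 1.51 CPM inside and 2263 CPM outside, with a median over libraries of 355 CPM outside. FCER1A stood at 173 and 475 CPM, with medians of 145 and 218 CPM.

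Gated cells were a small part of every lung, and their share did not separate asthma from control. They made up 2.66% (95% Wilson interval 2.23 to 3.17%), 2.79% (95% Wilson interval 2.30 to 3.39%) and 2.14% (95% Wilson interval 1.74 to 2.63%) of quality-controlled cells in the control libraries. In the asthma libraries they made up 1.11% (95% Wilson interval 0.842 to 1.48%), 1.12% (95% Wilson interval 0.86 to 1.47%) and 6.10% (95% Wilson interval 5.42 to 6.86%). Asthma replicates 8 and 10 lay below every control library and asthma replicate 11 above every one. The low libraries overlapped under other gates: after thinning, asthma replicate 10 (1.69%) lay above control replicate 3 (1.52%), and among cells with 4 or 5 genes asthma replicate 8 (0.627%) lay above control replicate 3 (0.516%). The means were 2.53% ± 0.345 (SD, n = 3) and 2.78% ± 2.88 (SD, n = 3), with p = 1 in a two-sided exact permutation test, for which 3 against 3 libraries cannot give a p below 0.1. The asthma minus control difference was 0.249 percentage points, -1.41 without asthma replicate 11 and 1.44 when cells were gated after thinning to 2000 UMIs. The intervals cover counting error only, and shares can move with how each lung was dissociated, which was not tested.

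**Figure D2:**
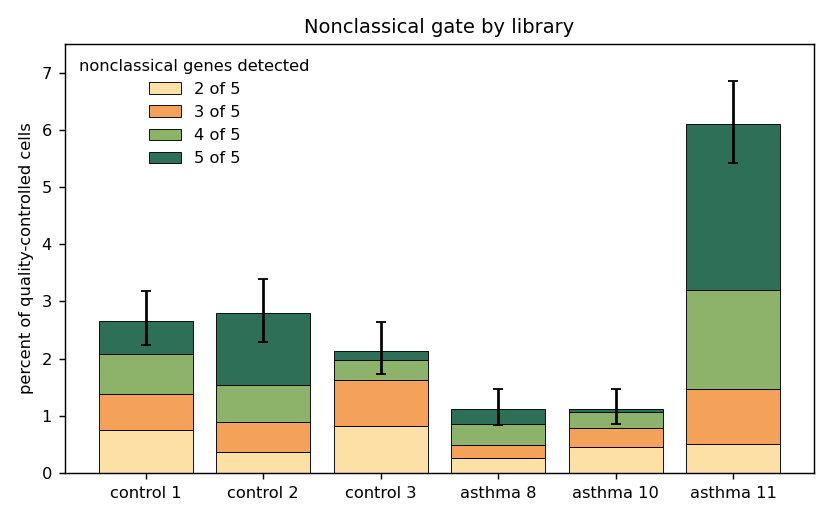
Gated cells as a percent of quality-controlled cells (vertical axis) in each library (horizontal axis), stacked by how many of the 5 nonclassical genes the cell carried; bars are 95% Wilson intervals of the total. Asthma replicate 11 stands at 6.10%, of which 4.63 percentage points are cells with 4 or 5 genes, and the other asthma libraries stand at 1.11% and 1.12%.

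The excess in asthma replicate 11 was made mainly of cells with 4 or 5 of the genes. These were 48.3%, 68.4% and 24.1% of gated cells in the control libraries and 56.2%, 30.2% and 75.9% in the asthma libraries, and the groups overlapped (means 46.9% and 54.1%, exact permutation p = 0.7). As a share of all quality-controlled cells, cells with 2 or 3 genes ranged from 0.488 to 1.62%, and cells with 4 or 5 from 0.339 to 4.63%. Classical monocytes were abundant in asthma replicate 11 as well (223 cells, against 73 to 134 in the other libraries). Gated cells as a percent of gated plus classical cells were at 54.1%, 43.9% and 39.4% in the control libraries and 39.7%, 36.3% and 53.9% in the asthma libraries (exact permutation p = 0.7).

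Classical monocytes, gated on VCAN and CSF1R or LRRC25 with fewer than 2 of the 5 nonclassical genes (750 cells), were the nearest cells to compare with. The gates chose cells on expression, so the differences are descriptions with no test. Within each library the log2 ratio of the 2 levels was taken with 10 CPM added. Of 11398 genes outside the gate, 161 (1.41%) were higher in the gated cells in all 6 libraries with a median log2 ratio over 1, and 255 (2.24%) were lower with a median under -1. The alarmins of classical monocytes marked the lower side. S100A8 stood at 24.6, 11.7 and 333 CPM in the control libraries and 20.5, 177 and 12.96 CPM in the asthma libraries among the gated cells. Classical monocytes held 3050.2, 8102 and 8077 CPM in the control libraries and 2489, 6618 and 5866 CPM in the asthma libraries. S100A9 followed, with 9.30 to 408 CPM against 3133 to 8939 CPM. Control replicate 3 and asthma replicate 10 had the highest S100A8 among the gated cells, and their cells with 4 or 5 genes had 44.4 and 16.7 CPM.

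The other low genes included several with roles in inflammation. Median log2 ratios, with the range over libraries, were -3.64 (-4.85 to -2.49) for PTGS2, the inducible cyclooxygenase, -3.62 (-5.44 to -1.46) for thrombospondin THBS1, -3.22 (-4.83 to -2.88) for the granulocyte colony-stimulating factor receptor CSF3R, and -3.32 (-4.08 to -0.15) for the protease inhibitor SERPINB10. CD14 stood at 77.3 to 339 CPM against 558 to 879.9 CPM, and the neutrophil-attracting chemokine CXCL8 at 27.9 to 344 against 267 to 2143 CPM. NRG1, a growth factor of the epidermal family, was at 1.67 against 106 CPM (medians). Of the 21 classical monocyte genes listed that had a row, 14 were lower than in classical cells in every library and none was higher in every library, beside 8.40% and 10.8% of all genes outside the gate. The matrix genes DCN, C7, PI16 and LUM were also among the 12 lowest. The classical gate also held the collagen gene COL3A1, at 3.70, 49.6 and 1.57 CPM in the control libraries and 2745, 167 and 116 CPM in the asthma libraries there. DCN was at 25.9, 289.7 and 295 CPM in the control libraries and 3648, 378 and 693 CPM in the asthma libraries. T cells held DCN as well, at 77.4, 402 and 567 CPM in the control libraries and 267, 18.4 and 407 CPM in the asthma libraries, more than classical cells in all 3 control libraries. The part of fibroblast RNA in these ratios was not tested. Classical cells were also shallow in asthma replicates 8 and 10 (median UMI counts 1171 and 1095, against 4699.5 to 7145 elsewhere).

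On the higher side, outside MS4A7, PLD4 and VMO1, stood LPL, lipoprotein lipase, at 186, 274 and 55.5 CPM in the control libraries and 508, 36.8 and 492 CPM in the asthma libraries, against 0 to 34.4 CPM in classical cells. Asthma replicate 10 was the lowest library and asthma replicates 8 and 11 the highest. PLVAP, a protein of endothelial diaphragms, had a log2 ratio of 2.55 (2.23 to 3.83), the immune receptor CD300H 2.55 (1.74 to 3.70), TNNI2, a troponin, 2.92 (1.397 to 3.94), and the lymphocyte phosphatase partner PTPRCAP 2.49 (0.49 to 2.85). Each of these was higher still in cells with 4 or 5 genes, with medians of 3.83 for LPL, 3.58 for PLVAP, 3.34 for CD300H, 3.03 for TNNI2 and 2.89 for PTPRCAP. CCL17 with 4.35 (1.92 to 6.80), LILRA4 with 2.95 (1.68 to 4.39), the ubiquitin adaptor CCDC50 with 2.66 (0.08 to 3.82) and the phosphatase inhibitor PPP1R14A with 2.86 (1.83 to 4.02) completed the 12 highest. In cells with 4 or 5 genes their medians were smaller, at 0.36, 1.09, 0.77 and 1.86. TCF7L2 had a log2 ratio of 2.12 (1.54 to 3.35).

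**Figure D3:**
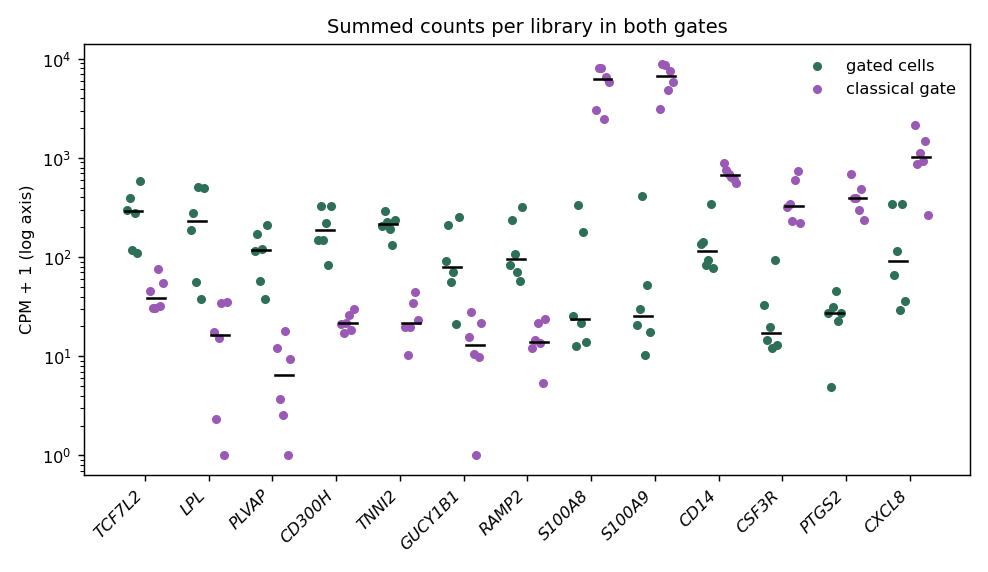
Level in CPM plus 1 on a log axis (vertical) of 13 genes (horizontal) in summed counts of the gated cells and of the classical monocyte gate; each point is 1 of 6 libraries and the line is their median. TCF7L2, LPL and PLVAP lie higher in the gated cells in every library, and S100A8, at 22.5 against 6242 CPM (medians), lower in every library.

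Among receptors and regulators, the direction against classical monocytes was shared by all libraries for many genes. Of 16 listed genes of antigen presentation by MHC class II, 11 were higher in gated cells in every library and 1 was lower, beside 10.8% and 8.40% of all genes outside the gate. HLA-DRA stood at 8216, 7843 and 12471 CPM in the control libraries and 10054, 13580.0 and 6046 CPM in the asthma libraries, against 2557 to 3750.3 CPM in classical cells. Summed over the list, cells with 4 or 5 genes held 14774 to 34621 CPM by library and cells with 2 or 3 held 32659.6 to 41176 CPM, against a median of 14254 CPM in classical cells. In asthma replicate 11 HLA-DRA was lower in cells with 4 or 5 genes (3625 CPM) than in classical cells (3750.3 CPM). FCER1G, the signalling chain of Fc receptors, had 2152 to 4943 CPM against 1238 to 1918 CPM, and ITGB2 518 to 1412 against 249.6 to 449 CPM. Their lists did not lean this way. Of 15 Fc and complement genes with a row, 1 was higher and 3 were lower in every library. Of 23 adhesion genes 4 were higher and 4 lower, beside 10.8% and 8.40% of all genes outside the gate. Of 26 transcription factors listed, 8 were higher and 6 lower in every library, read beside the same shares. NR4A1, on which nonclassical monocytes depend, was higher in all 6 libraries (317 to 506 against 184 to 292 CPM), and the myeloid master regulator SPI1 was not, with 501.4 to 769 against 406 to 641 CPM. Of 28 inflammatory mediators, 10 were lower and 3 higher in every library, the latter close to the 10.8% of all genes, and interleukin-1 beta, IL1B, stood at 435 to 1417 against 1096 to 3925 CPM.

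Against macrophages, which held at least 3 of C1QA, C1QB, MARCO and FABP4 (1815 cells), the same description was made: 307 of 13268 genes outside the gate (2.31%) were higher and 358 (2.70%) lower by the same measure. POU2F2 had a median log2 ratio of 4.36 (2.87 to 4.91), RIPOR2 3.74 (2.36 to 4.58), the Notch target HES1 3.61 (2.90 to 3.79) and LTB, lymphotoxin beta, 3.35 (2.04 to 4.07). RIPOR2, HES1 and LTB were not particular to the gated cells. Against classical monocytes their median log2 ratios were -0.38 (-3.52 to 0.46), -0.63 (-0.82 to 1.13) and 0.29 (-3.08 to 2.15). T cells held RIPOR2 and LTB at medians of 322 and 488 CPM. Lower were the chitinase CHIT1, -4.83 (-6.90 to -3.53), the fatty acid desaturase SCD, -4.09 (-5.62 to -2.89), the chemokine CCL18, -4.01 (-5.05 to -2.26), and PPARG, the regulator of alveolar macrophages, -3.47 (-4.02 to -1.59). Macrophage cells were deeper, with median UMI counts of 22100 to 28850 by library.

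No gene passed the test of asthma against control in the gated cells, edgeR's quasi-likelihood test on counts summed per library with Benjamini-Hochberg adjustment. Of 6694 genes tested outside the gate, none was called at an adjusted p under 0.05 (0.00%). An unadjusted p under 0.05 was reached by 142 genes that were higher in asthma (2.12%) and 133 that were lower (1.99%), together 275, and the smallest adjusted p was 0.46. All asthma libraries lay above all control libraries for 415 genes (6.20%) and below for 224 (3.35%). DESeq2 called 5 genes on the same counts, all lower in asthma, and edgeR without a filter on low counts called 35. The genes named next are those of smallest unadjusted p in edgeR with a mean of at least 20 CPM, 10 in each direction. All missed the edgeR threshold.

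NDRG2, a stress- and differentiation-linked gene of the N-myc downstream-regulated family, had the smallest p of these. It stood at 76.5, 98.5 and 41.6 CPM in the control libraries and 13.03, 21.7 and 17.97 CPM in the asthma libraries. Every asthma library was below every control library (log2 fold change -2.09, SE 0.36, unadjusted p = 0.0003, adjusted p = 0.66), and DESeq2 called it (adjusted p = 0.0054). In cells with 4 or 5 of the genes it stood at 123, 138 and 95.1 CPM in the control libraries and 22.8, 33.3 and 12.8 CPM in the asthma libraries, again without overlap. Classical monocytes showed the same order, with 53.6, 46.9 and 51.8 CPM in the control libraries and 12.6, 30.7 and 21.3 CPM in the asthma libraries. The size of the asthma difference missed the threshold in the test of a difference between the gates (log2 difference -0.71, SE 0.45, unadjusted p = 0.14).

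CST7, cystatin F, a protease inhibitor of cytotoxic and dendritic cells, stood at 128, 95.5 and 201 CPM in the control libraries and 54.0, 40.1 and 25.9 CPM in the asthma libraries (log2 fold change -1.96, SE 0.38, unadjusted p = 0.00072, adjusted p = 0.69). It was higher in cells with 2 or 3 genes in every library, and in cells with 4 or 5 the groups overlapped. SCD stood at 65.2, 50.7 and 38.2 CPM in the control libraries and 18.6, 0 and 7.11 CPM in the asthma libraries, from 37 cells, and 1 cell of control replicate 1 held 31.5% of its UMIs. Without that cell the library had 11.6 CPM, below asthma replicate 8. DESeq2 called CST7, SCD and the T cell chemokine CCL5, which was at 53.8, 22.4 and 77.5 CPM in the control libraries and 5.58, 16.7 and 5.43 CPM in the asthma libraries. FCER1A was at 189.8, 117 and 276 CPM in the control libraries and 50.2, 61.8 and 104 CPM in the asthma libraries (log2 fold change -1.46, SE 0.37, unadjusted p = 0.004, adjusted p = 0.99). FCER1A in cells with 4 or 5 genes stood at 83.6, 0 and 241 CPM in the control libraries and 55.5, 108 and 27.3 CPM in the asthma libraries, and the groups overlapped. CXCL10, the interferon-induced chemokine for CXCR3, was at 384, 249.6 and 158 CPM in the control libraries and 132, 90.2 and 39.7 CPM in the asthma libraries (log2 fold change -1.70, SE 0.47, unadjusted p = 0.006, adjusted p = 0.99), and in cells with 4 or 5 genes at 229.8, 404 and 526 CPM in the control libraries and 179, 74.9 and 52.4 CPM in the asthma libraries, without overlap in either set. A single cell of control replicate 1 held 308 of its 1020 UMIs, and that library had 95.8 CPM without that cell, below asthma replicate 8. MPC2, a mitochondrial pyruvate carrier, the sulphotransferase CHST12, the lectin CLEC2B and CHIT1 made up the 10, with log2 fold changes of -0.99, -1.15, -0.92 and -3.15. With all gated cells kept, the groups overlapped in CHIT1 and in none of the other 9.

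In the other direction the smallest p belonged to SLC43A3, a purine nucleobase transporter, at 14.2, 20.5 and 15.0 CPM in the control libraries and 40.9, 38.4 and 48.9 CPM in the asthma libraries (log2 fold change 1.32, SE 0.25, unadjusted p = 0.00069, adjusted p = 0.69). MX1, an interferon-induced antiviral GTPase, followed at 89.7, 114 and 125 CPM in the control libraries and 229, 207 and 199 CPM in the asthma libraries (log2 fold change 0.89, SE 0.20, unadjusted p = 0.0019, adjusted p = 0.99). In cells with 4 or 5 genes MX1 stood at 121, 178 and 165 CPM in the control libraries and 326, 216 and 229 CPM in the asthma libraries, with a log2 fold change of 0.72. EPSTI1, another interferon-induced gene, was at 14.2, 28.3 and 17.4 CPM in the control libraries and 46.5, 51.8 and 35.9 CPM in the asthma libraries (log2 fold change 1.07, SE 0.33, unadjusted p = 0.01, adjusted p = 0.99). SGK1, a glucocorticoid- and serum-induced kinase, was at 220.0, 252 and 165 CPM in the control libraries and 348, 381 and 337 CPM in the asthma libraries (log2 fold change 0.69, SE 0.20, unadjusted p = 0.009, adjusted p = 0.99). The lysosome-related WDR81, the bicarbonate transporter SLC4A7, the guanine nucleotide exchange factor ARHGEF10L, the cohesin subunit SMC1A, the Polycomb protein CBX6 and the lymphocyte GTPase GIMAP4 had log2 fold changes of 1.36, 0.95, 1.10, 0.75, 0.79 and 0.97. In all 10 every asthma library was above every control library. In cells with 4 or 5 genes the groups overlapped in SLC43A3, EPSTI1, ARHGEF10L, SMC1A and GIMAP4.

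**Figure D4:**
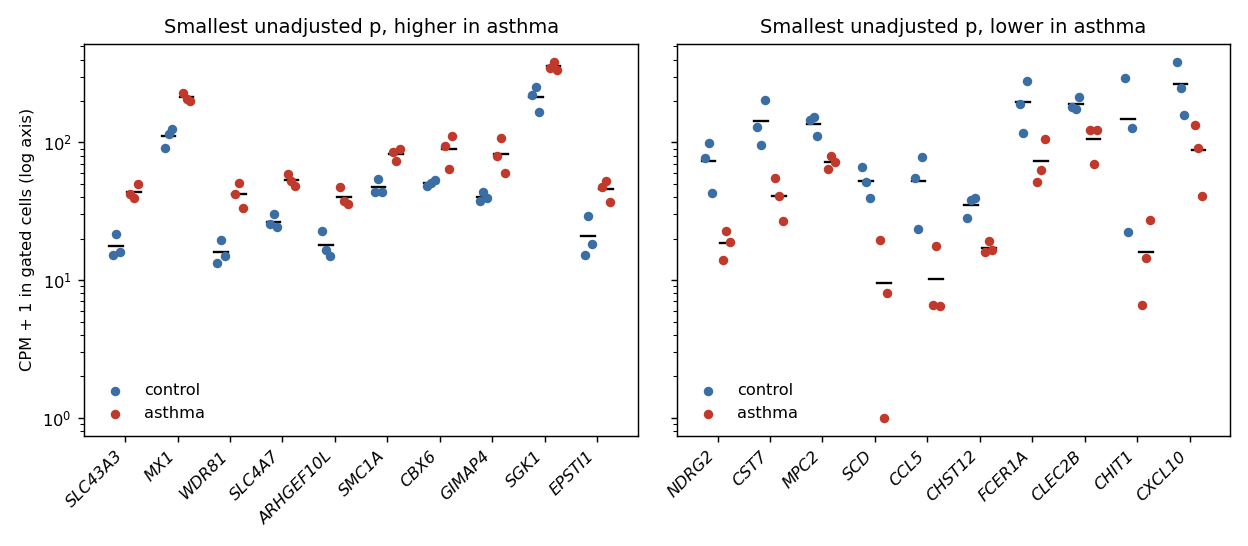
Level in CPM plus 1 on a log axis (vertical) of the 10 genes of smallest unadjusted p in each direction (horizontal) in the gated cells; each point is 1 library, blue control and red asthma, n = 3 each, and the line is the group mean. EdgeR called none of the 20, and DESeq2 called NDRG2, CST7, SCD and CCL5 on the same counts. The groups lie apart in all 20 except CHIT1.

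Among the lists, the interferon-stimulated genes held the most genes with an unadjusted p under 0.05 in one direction. Of 35 with a row, 29 were tested and none was called. An unadjusted p under 0.05 was reached by 7 that were higher in asthma (among them MX1, MX2, IFI44, OASL, EPSTI1 and PARP9), beside 2.12% of all genes, and by 1 that was lower (CXCL10), beside 1.99%. All asthma libraries lay above all control libraries for 7 of 29, beside 6.20% of all genes, and below for 1, beside 3.35%. MX2 stood at 41.5, 37.0 and 65.9 CPM in the control libraries and 72.6, 110.3 and 93.2 CPM in the asthma libraries (log2 fold change 0.88, SE 0.29, unadjusted p = 0.016, adjusted p = 0.99). The median log2 fold change of the list was 0.60, against 0.01 over all genes tested. In cells with 4 or 5 genes it was 0.06 over 21 tested, where 4 genes (among them MX1, MX2 and IFI27) lay above all control libraries and 2 below (CXCL10 and IFI35), beside 6.45% and 4.33% of all 4246 genes. Without asthma replicate 10 the median in all gated cells was 0.29. The most abundant members, LY6E, IFI6, CXCL10 and GBP1, had log2 fold changes of 0.05, 0.66, -1.70 and 0.14.

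EdgeR's test of asthma against control called no gene of the other lists either. DESeq2 called CCL5, which is among the inflammatory mediators. The nonclassical identity list, with POU2F2, NR4A1, PECAM1 and TNFRSF1B as its most abundant members, had a median of 0.30 over 16 tested genes, and -0.08 over 12 in cells with 4 or 5 genes. Without asthma replicate 11 it turned to -0.15, and without control replicate 2 it was 0.63. Over the 6 fits that left out a library, the medians of the interferon-stimulated, Fc and complement, dendritic, T and natural killer, parenchyma and blood, and cell cycle lists kept their sign, and that of each other list turned in at least 1 fit. MHC class II genes had a median of -0.02 over 14, with HLA-DRA at 0.01 (SE 0.34), CD74 at -0.33, HLA-DPA1 at -0.26 and the lysosomal reductase IFI30 at -0.02. Inflammatory mediators had a median of 0.17 over 19. An unadjusted p under 0.05 was reached by 3 that were lower (CXCL10, CCL5 and the growth factor EREG), beside 1.99% of all genes. None that was higher reached it, beside 2.12%. All asthma libraries lay below all control libraries for 2 (CXCL10 and CCL5), beside 3.35% of all genes, and above for none, beside 6.20%. The log2 fold changes of the most abundant members were -0.31 (SE 0.46) for IL1B, 0.47 for SOD2 and 0.06 and 0.17 for the NF-kappaB inhibitors NFKBIA and NFKBIZ. Immediate early genes (FOS, ZFP36, DUSP1 and ATF3 the most abundant) had a median of 0.07 over 20 and heat shock genes (HSPA8, HSP90AA1, HSP90AB1 and HSPA5) 0.02 over 11. Cell cycle genes had a median of -0.10 over 6.

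Genes of the type 2 response, which drives allergic airway disease, had a median of 0.20 over 14 tested, and 6 of the 24 with a row had no UMI in any gated cell (CCL13, CCL26, FCER2, CD209, ARG1 and IL1RL1). CCL17 stood at 251, 149 and 27.8 CPM in the control libraries and 1105, 600.0 and 88.6 CPM in the asthma libraries (log2 fold change 2.002, SE 0.90, unadjusted p = 0.056, adjusted p = 0.99). Asthma replicates 8 and 10 were the highest, and asthma replicate 11 lay below 2 control libraries. In asthma replicate 8 CCL17 came from 6 cells, and without the cell with most of it the library had 489 CPM. The mannose receptor MRC1, CCL18 and the interleukin-13 receptor chain IL13RA1 had log2 fold changes of 0.30, -0.38 and 0.28. Among 12 Fc and complement genes (median 0.37), 2 that were higher reached an unadjusted p under 0.05, beside 2.12% of all genes. These were the integrin chain ITGAM (log2 fold change 0.94, SE 0.37) and the complement component C3 (2.43, SE 1.03). FCGRT, 1 gene that was lower, reached it too, beside 1.99% of all genes, and the groups overlapped in all of them. CFD stood at 5675, 8367 and 2415 CPM in the control libraries and 3742, 3001 and 9750.3 CPM in the asthma libraries, with a log2 fold change of -0.07, and FCGRT, the neonatal Fc receptor, at 683, 432 and 1011 CPM in the control libraries and 514, 289 and 263 CPM in the asthma libraries (log2 fold change -1.08, SE 0.37, unadjusted p = 0.017, adjusted p = 0.99). Adhesion genes had a median of 0.08 over 19, transcription factors 0.09 over 24 and paired inhibitory and activating receptors -0.05 over 10. IRF8 was at 444, 267 and 783 CPM in the control libraries and 363, 257 and 143 CPM in the asthma libraries (log2 fold change -1.05, SE 0.45, unadjusted p = 0.047, adjusted p = 0.99).

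**Figure D5:**
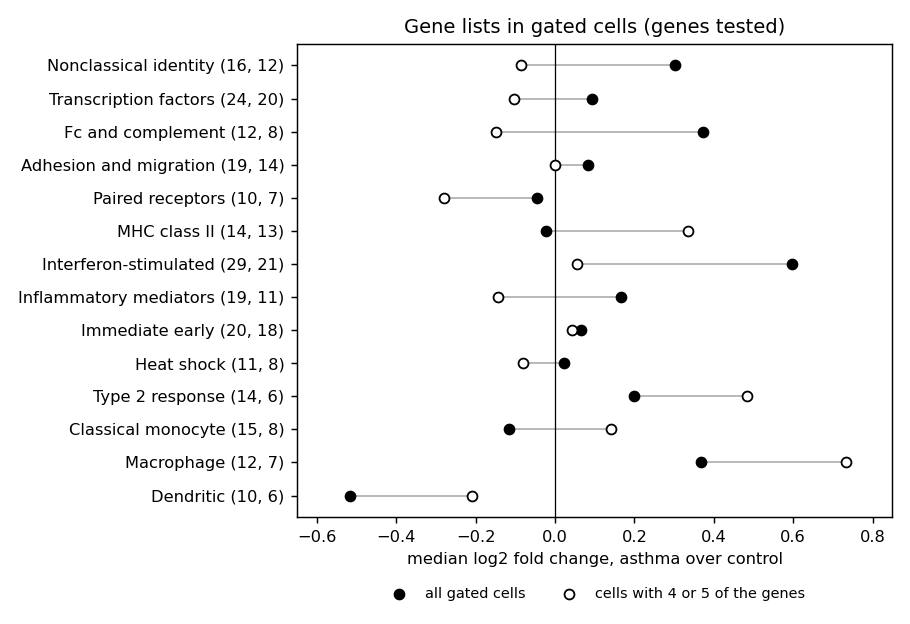
Median log2 fold change of asthma over control (horizontal axis) of 14 gene lists (vertical axis, with the number of genes tested in all gated cells and in cells with 4 or 5 of the genes); filled points are all gated cells and open points cells with 4 or 5 genes. The interferon-stimulated list moves from 0.60 to 0.06, and edgeR called no gene of any list in either set. DESeq2 called CCL5, an inflammatory mediator, in all gated cells.

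The dendritic genes with a row summed to 2707, 1932 and 2512 CPM in the control libraries and 2283, 1945 and 1406 CPM in the asthma libraries, with GZMB the most abundant and XCR1 and CCR7 at 0. In cells with 4 or 5 genes the sum was 912 to 1826 CPM, of which IDO1 was the most abundant. The 21 macrophage genes outside the gate summed to 4239, 4046 and 1693 CPM in the control libraries and 2489.9, 8774 and 1543 CPM in the asthma libraries, with APOE the most abundant and LYVE1 at 0, and asthma replicate 10 was the highest. The classical monocyte list summed to 10605 to 17163 CPM, led by S100A6, LYZ and S100A4, with MNDA at 436 to 846 CPM and CES1 at 0. T and natural killer genes summed to 1671, 866 and 1319.8 CPM in the control libraries and 1122, 981 and 239 CPM in the asthma libraries, led by GZMB, with CD5 and TRAT1 at 0. B and plasma cell genes summed to 103 to 527 CPM, led by IGKC, and neutrophil genes to 711 to 1736 CPM, led by AZU1, with MMP8, LTF and PROK2 at 0. The study used AZU1 as a marker of its monocytes. EdgeR called no gene of these lists in all gated cells, while DESeq2 called CCL5 of the T and natural killer list. In cells with at least 3 of the 5 nonclassical genes, and without cells of the highest doublet scores, edgeR called GNLY of that list. The median log2 fold change was -0.52 over 10 dendritic genes tested, 0.37 over 12 macrophage genes (-1.22 without asthma replicate 10), -0.12 over 15 classical monocyte genes, -1.03 over 5 T and natural killer genes, 0.07 over 3 B and plasma cell genes and 0.09 over 4 neutrophil genes. The part of these cells in the asthma comparison was not tested.

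Some epithelial and red cell transcripts came almost wholly from single cells. SCGB3A1, an airway secretoglobin, stood at 11056 CPM in asthma replicate 10, and 1 cell held 6614 of the 6645 UMIs found in all gated cells. Without that cell the library had 3.41 CPM. The same held for the club cell protein SCGB1A1 in that library, for the globin HBB in control replicate 2 (1109.5 CPM with and 6.90 CPM without 1 cell) and for ITLN1, an intelectin of goblet and mesothelial cells, in asthma replicate 8 (1552 and 54.2 CPM). The cells with most HBB and ITLN1 were among those with the highest doublet scores, and the cell with most SCGB3A1 was not. The parenchyma and blood list had a median log2 fold change of 0.82 over 5 tested genes, and CLDN5 was at 0.

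The asthma difference in gated cells was also compared with that in classical monocytes, with the library as a block. Of 7253 genes outside the gate, none was called (0.00%), 352 (4.85%) reached an unadjusted p under 0.05, and the smallest adjusted p was 0.097. Among the genes named above, the smallest p belonged to TCF4, which stood at 194, 146 and 337 CPM in the control libraries and 311, 139 and 80.2 CPM in the asthma libraries in gated cells and 18.5, 14.8 and 17.3 CPM in the control libraries and 92.4, 61.5 and 41.3 CPM in the asthma libraries in classical cells (log2 difference of the asthma effects -2.37, SE 0.39, adjusted p = 0.145). SCD, which had few UMIs in both gates, followed (-4.32, SE 0.74, adjusted p = 0.145). For MX1 the difference was 0.73 (SE 0.40, unadjusted p = 0.09). DESeq2 called 3 genes, all with a lower asthma effect in gated cells (A2M, TCF4 and C3). In the classical gate the collagen gene COL1A1 was at 0, 133 and 26.7 CPM in the control libraries and 4030.0, 136 and 222 CPM in the asthma libraries, and classical cells of asthma replicates 8 and 10 were shallow. The part of fibroblast RNA and of depth in these differences was not tested.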

How the data were processed

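The deposited matrices hold UMI counts per gene and barcode, which the authors made with Cell Ranger against the macFas6 genome (version 2.1.1 in the submitters' processing notes, 4.0.0 in the matrix headers); a further version is named in the study's methods, and which made the files is not settled. Counts were as deposited, for 21095 genes with a symbol and 7528 without. Cells with 501 to 4999 genes and at most 25% mitochondrial UMIs were kept, 25388 of 35133 barcodes, more than the study states, and no doublets were removed except in an alternative that ranked cells by Scrublet score. The members, the 19 gene lists and the tests were chosen with earlier results of these data known. Of 420 listed genes, 341 had a row under their symbol.

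Counts were summed per library over the gated cells (537375 to 2392634 UMIs) and tested with edgeR 4.0.16 (TMM, filterByExpr, quasi-likelihood test, R 4.3.3), with Benjamini-Hochberg adjustment over all genes tested, and a gene was called where the adjusted p was below 0.05 and its log2 fold change exceeded 0.25 in size. CPM is a gene's count per 1000000 UMIs of the summed cells, without TMM factors. Gate genes stayed out of all counts of calls. Shares were compared by a two-sided exact permutation test over 20 assignments. Each group has 3 monkeys and 1 library per monkey. Named genes were the gate genes, the 10 of smallest p per direction, the 4 most abundant of each list and the 12 highest and 12 lowest against classical monocytes; TCF7L2, CX3CR1, CXCL8 and others described by number of nonclassical genes or against macrophages were chosen after their values were seen. DESeq2 1.42.0 was an alternative. In simulated counts the asthma test (6704 genes) found 85.5% of 200 altered genes at a log2 change of 2 and 0% at 1, and the interaction test (7265 genes) 59% and 2.5%. Some items are not reported here.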

Additional observations from a re-analysis of the deposited data

How the results depend on the processing

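Each library was left out in turn, and the difference of the gated share of quality-controlled cells then ranged from -1.41 to 1.08 percentage points and that of gated per gated plus classical cells from -7.80 to 1.64. When cells were gated after thinning to 2000 UMIs the former was 1.44 and the latter reversed to 9.42, and, in alternatives chosen after seeing the data, the latter reversed to 1.34 with at least 4 of the 5 genes and to 0.33 without cells with a dendritic gene. Calls of the asthma comparison numbered 0 to 1 with a library left out (KRT19 without asthma replicate 11). They were 1 with at least 3 of 5 genes and 1 without the highest doublet scores (GNLY both times), 5 by DESeq2 (AWAT2, CCL5, CST7, NDRG2 and SCD) and 35 with no filter on low counts. The interaction test gave 0 to 9 calls with a library left out (3 without control replicate 2, 4 without asthma replicate 10 and 9 without asthma replicate 11), 2 without the highest doublet scores, 3 by DESeq2, 66 with no filter, 2 with at least 4 of 5 genes and 1 without cells with a dendritic gene. The cause was not tested. With 1 CPM added in place of 10, 405 genes were higher and 468 lower than in classical monocytes, and 665 and 822 than in macrophages, as fewer reads then suffice to pass a ratio; with a library left out the ranges were 150 to 182, 248 to 314, 299 to 386 and 346 to 424. Of 1061 values of 84 named genes, 1002 moved by less than 1 SD, 45 by more, and 14, of 9 genes, passed the threshold. No paired analysis was possible because the control and asthma monkeys share no replicate number. The depth of 48 to 261 cells per library limits what scarce genes can show.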

Other observations

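Several genes known also from other cells were higher in every library in cells with 4 or 5 of the nonclassical genes than in cells with 2 or 3. Among them was AZU1, which the study used as a marker of its monocytes. AZU1, azurocidin, a granule protein of neutrophils, was at 548, 2215 and 621 CPM in the control libraries and 992, 1216 and 413 CPM in the asthma libraries there, and in classical monocytes at 194, 933 and 133 CPM in the control libraries and 323, 430.4 and 125 CPM in the asthma libraries. Control replicate 2 was the highest in both, and the neutrophil genes MMP8, LTF and PROK2 had no UMI in gated cells. DES, desmin, an intermediate filament of muscle, was at 362, 183 and 266 CPM in the control libraries and 153, 199.8 and 273 CPM in the asthma libraries in cells with 4 or 5 genes and at 7.07 to 45.01 CPM in cells with 2 or 3. PDCD1LG2, a ligand of the inhibitory receptor PD-1, was at 30.2, 85.1 and 76.1 CPM in the control libraries and 65.3, 33.3 and 67.5 CPM in the asthma libraries and 1.59 to 9.93 CPM, and CETP, a lipid transfer protein, at 18.4 to 116 and 0 to 7.45 CPM. Classical monocytes held DES at 26.3 to 74.4 CPM, PDCD1LG2 at 0 to 3.14 CPM and CETP at 0 to 22.0 CPM. These genes and AZU1 were chosen after their values were seen.

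LY6D, a lymphocyte surface gene, differed among monkeys of 1 group: in gated cells it was at 469, 18.5 and 6.94 CPM in the control libraries and 91.2, 76.9 and 8.78 CPM in the asthma libraries, and control replicate 1 held most of it. HLA-DQA1 was at 20.8, 49.7 and 603 CPM in the control libraries and 37.2, 154 and 499 CPM in the asthma libraries, with control replicate 3 and asthma replicate 11 high, and the same libraries were the highest in classical monocytes (5.55, 5.36 and 39.3 CPM in the control libraries and 12.6, 4.39 and 70.2 CPM in the asthma libraries).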
